A study of Mus musculus with 9 samples.

Results

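Of 17565 genes in the deposited gene table of MS1 cells, 64 carried a symbol of the matrix metalloproteinase (Mmp), tissue inhibitor (Timp), Adam, Adamts or Adamtsl families, matched by the symbol and its number alone. A level of 0.5 CPM in at least 3 of the 9 libraries was reached by 35 of these 64, and the same minimum left 12350 genes in all. The 35 were 10 of 19 Mmp genes, 3 of 4 Timp genes, 11 of 21 Adam genes, 9 of 16 Adamts genes and 2 of 4 Adamtsl genes. CPM here is the authors' measure of reads per gene, set relative to a scaled library size. The other 29 lay below that minimum and are accounted for last.

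Matrix metalloproteinases are zinc proteases, secreted or held at the membrane, that cut collagens, laminins and other matrix proteins and activate one another. TIMPs block their active sites, and some TIMPs also block ADAM and ADAMTS proteases. ADAM proteins sit in the membrane and release the outer parts of receptors, adhesion molecules and growth factors, while ADAMTS proteins are secreted and cut proteoglycans and procollagens, and ADAMTS-like proteins resemble them without the protease domain. In vessels, these proteins act on the basement membrane under the endothelium and on surface proteins such as cadherins and Notch.

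MS1 is an established line of mouse endothelial cells from the pancreas, and all 3 groups, of 3 libraries each, are stable lentiviral derivatives made with pCDH vectors. TAZ-CAMTA1 cells carried pCDH-TAZ-CAMTA1, TAZ4A cells carried pCDH-TAZS4A, and control cells carried pCDH-puro. TAZ-CAMTA1 is the fusion oncoprotein found in epithelioid hemangioendothelioma, and TAZ4A is a form of the transcriptional co-activator TAZ in which serines that restrain it are replaced by alanine. The design compares each construct with control and the fusion with TAZ4A. A single cell line was used, the labels do not give the promoter of the vectors or the species of the inserted TAZ, and they do not say that the libraries of a group came from separate cultures. The p-values therefore measure spread between libraries that may be technical. Both comparisons with control use the same 3 control libraries.

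The libraries held 21966004 to 34224715 reads assigned to genes. Where a library had 0 reads, the level could still be as high as 0.0878 to 0.139 CPM by counting error alone, which is 3 reads. Mouse Camta1 averaged 13.1 ± 0.579 CPM in TAZ-CAMTA1, 4.91 ± 0.253 CPM in TAZ4A and 4.05 ± 0.923 CPM in control (SD, n = 3 each). Mouse Wwtr1, the gene of TAZ, averaged 437 ± 94.4 CPM in TAZ-CAMTA1, 325 ± 8.70 CPM in TAZ4A and 551 ± 17.6 CPM in control. It was lower in the libraries labelled TAZ4A than in control (log2 fold change -0.76 ± 0.15, limma adjusted p = 0.0057), so the mouse gene does not check that label. Of 14 endothelial markers 13 reached 1 CPM in every library, the exception being Cldn5 at up to 0.0872 CPM. The list summed to 11444 to 13067 CPM in TAZ-CAMTA1, 7871 to 8145 CPM in TAZ4A and 11979 to 12240 CPM in control, so its level was lowest in TAZ4A. The endothelial receptor Tie1 stood at 2188 to 2309 CPM in TAZ-CAMTA1, at 1055 to 1159 CPM in TAZ4A and at 2305 to 2356 CPM in control. Pecam1, Tek, Emcn, Vwf, Egfl7, Robo4 and Esam also had their lowest library in TAZ4A. For Cdh5, Kdr, Flt1 and Erg the lowest library was TAZ-CAMTA1 replicate 2. Eng stood at 239 to 262 CPM in TAZ-CAMTA1, 245 to 272 CPM in TAZ4A and 279 to 311 CPM in control. Of 4 epithelial markers 2 reached 1 CPM in any library, and their sum was 21.0 to 49.5 CPM in TAZ-CAMTA1, 27.7 to 29.9 CPM in TAZ4A and 20.8 to 24.0 CPM in control. The keratin Krt19 of that list was highest in TAZ4A, at 0.833 to 2.15 CPM in TAZ-CAMTA1, 7.98 CPM or more in every TAZ4A library and 0.439 to 0.557 CPM in control. Krt18, the more abundant of the 2, was not highest there. It stood at 19.4 to 46.4 CPM in TAZ-CAMTA1, 18.6 to 19.7 CPM in TAZ4A and 20.1 to 23.4 CPM in control. Of the fibroblast and mural list 3 of 7 reached 1 CPM in any library, with Lum and Rgs5 at up to 0.0464 CPM. Its sum was 10.1 to 16.0 CPM in TAZ-CAMTA1, 16.0 to 17.3 CPM in TAZ4A and 5.44 to 6.13 CPM in control. Dcn, a stromal proteoglycan of that list, stood at 1.99 to 2.07 CPM in TAZ4A and at up to 0.0336 CPM elsewhere. The receptors Pdgfra and Pdgfrb of that list lay above control in both constructs. Pdgfra stood at 4.53 to 9.03 CPM in TAZ-CAMTA1, 8.62 to 9.50 CPM in TAZ4A and 2.88 to 3.04 CPM in control. Pdgfrb was highest in TAZ-CAMTA1, at 4.63 to 6.10 CPM, with 4.08 to 4.56 CPM in TAZ4A and 2.21 to 2.66 CPM in control. Several members below are also known from fibroblasts, and the part of these marker shifts in their values was not tested. In such bulk samples fewer cells that make a transcript and less of it per cell cannot be told apart.

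One library, TAZ-CAMTA1 replicate 2, differed from its group. Across genes its log2 values correlated at 0.963 and 0.962 with replicates 1 and 3, and the lowest value for any other pair within a group was 0.997. The 77 genes of ribosomal proteins held 3.86% of reads in it and 1.76% to 2.04% in the rest. Of 25 members with a mean of at least 2 CPM in replicates 1 and 3, 12 had less than 0.75 times that mean in replicate 2. Among genes at 2 CPM or more in at least 3 libraries, chosen differently from the members, the share was 28.4%. The median ratio was 0.785 for these members and 0.988 for those genes. Adamts12 was the most reduced of the members, at 1.21 CPM in replicate 2 against a mean of 13.8 CPM in replicates 1 and 3 (ratio 0.0876), and Timp1 had a ratio of 1.81. The ratio was lower for members with longer transcripts (Spearman rho -0.54 over 25 genes of the same 3 libraries, a description). Reads that cross exon junctions, given as RPM relative to each 1000000 such reads of the library, gave a ratio below that of the gene totals in 17 of the 23 members with at least 30 such reads in replicates 1 and 3. Their median junction ratio was 0.496, and Timp2, Mmp11, Adam15 and Timp1 were among those with a higher junction ratio, at 1.11, 1.17, 1.26 and 1.95. Adam19 had 9.01 junction RPM in replicate 2 against a mean of 125 in replicates 1 and 3, while its gene totals were 98.0 and 191 CPM. Each comparison was also made without this library.

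**Figure D1:**
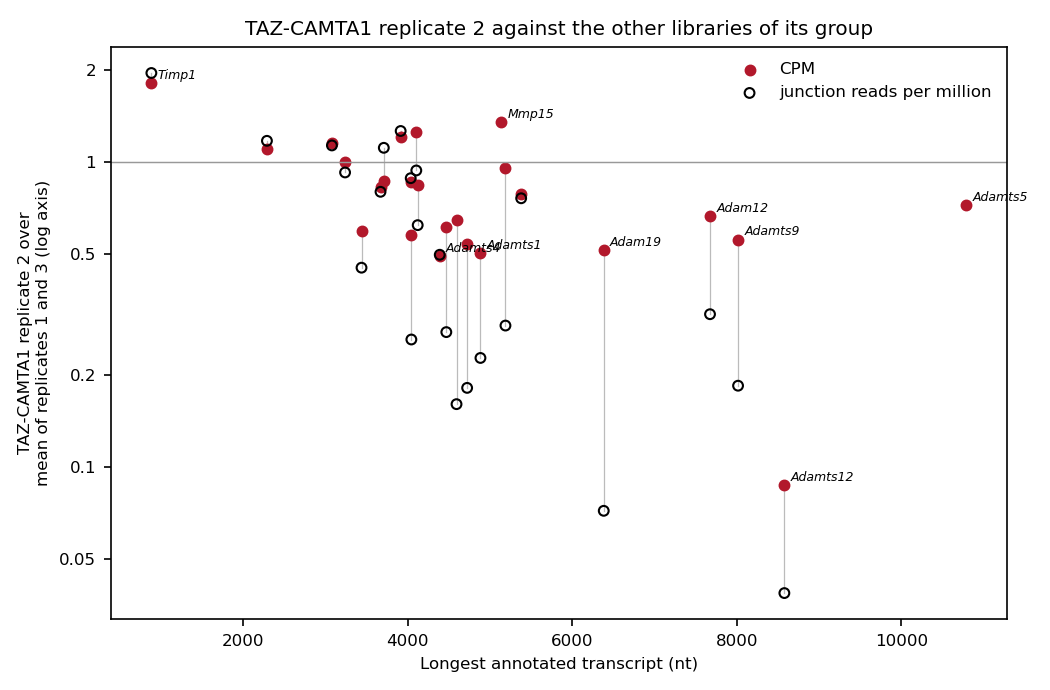
Level of each member in TAZ-CAMTA1 replicate 2 divided by its mean in replicates 1 and 3 (log axis), against the length of its longest annotated transcript in nucleotides. Filled points are CPM (25 members) and open points are junction RPM (23 members), joined by a line for a member that has both. Adamts12 lies lowest at a CPM ratio of 0.0876 and Timp1 highest at 1.81.

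In TAZ4A against control, 14 of the 35 members were higher and 8 were lower (limma adjusted p under 0.05 over 12350 genes). Of all genes tested, 13.2% were higher and 11.7% lower, so 62.9% of members passed in either direction, against 24.9% of all genes. Adamts16, Mmp13 and Adam33, counted among the 14, reached the minimum only with their TAZ4A libraries, where they are highest. Their calls that involve TAZ4A are thus not independent of the minimum. In TAZ-CAMTA1 against control, 12 members were higher and 8 lower, with 16.8% and 15.3% of all genes called, or 57.1% of members against 32.1% of all genes in either direction. In TAZ-CAMTA1 against TAZ4A, 10 members were higher and 9 lower, with 19.4% and 18.5% of all genes called, or 54.3% of members against 37.9% of all genes. The median log2 fold change of the members was 0.33 in TAZ4A against control and 0.06 in TAZ-CAMTA1 against TAZ4A, where the medians of all genes were -0.01 and -0.02. It was 0.00 in TAZ-CAMTA1 against control, where that of all genes was -0.03. When all libraries were rescaled to 1 common CPM sum, the split in TAZ4A against control was 18 higher and 6 lower. With TPM, the authors' values per transcript length, the split in TAZ-CAMTA1 against TAZ4A was 7 higher and 11 lower. The authors' deposited table was read at a false discovery rate under 0.05. In the 3 comparisons it gave 13 higher and 7 lower, 14 and 8, and 11 and 9 of these 35 members. It called 11.5% and 6.76%, 13.4% and 8.64%, and 14.0% and 13.4% of all 17565 genes. Unlike the limma shares over 12350 genes, those shares include genes below the minimum that the 35 members reached. They are thus not a like comparison for the member counts.

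Without TAZ-CAMTA1 replicate 2 the spread shared by all groups shrank and calls became common throughout the table. Members then called numbered 21 higher and 12 lower in TAZ4A against control (28.1% and 30.3% of all genes), 17 and 11 in TAZ-CAMTA1 against control (28.5% and 32.3%), and 18 and 12 in TAZ-CAMTA1 against TAZ4A (30.8% and 32.2%). All 3 comparisons called 11 members with all libraries, and 6 members (Adamts4, Adam17, Adamts12, Mmp24, Adamts9 and Adam10) were called in none. Calls near the threshold also depended on the other libraries. In TAZ4A against control those of Mmp11, Timp1, Adam19, Adamts10 and Adamtsl4 were each lost whenever any 1 TAZ4A or control library was left out, as were those of Adamts1 and Timp2 in TAZ-CAMTA1 against control and of Mmp2 between the constructs.

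**Figure D2:**
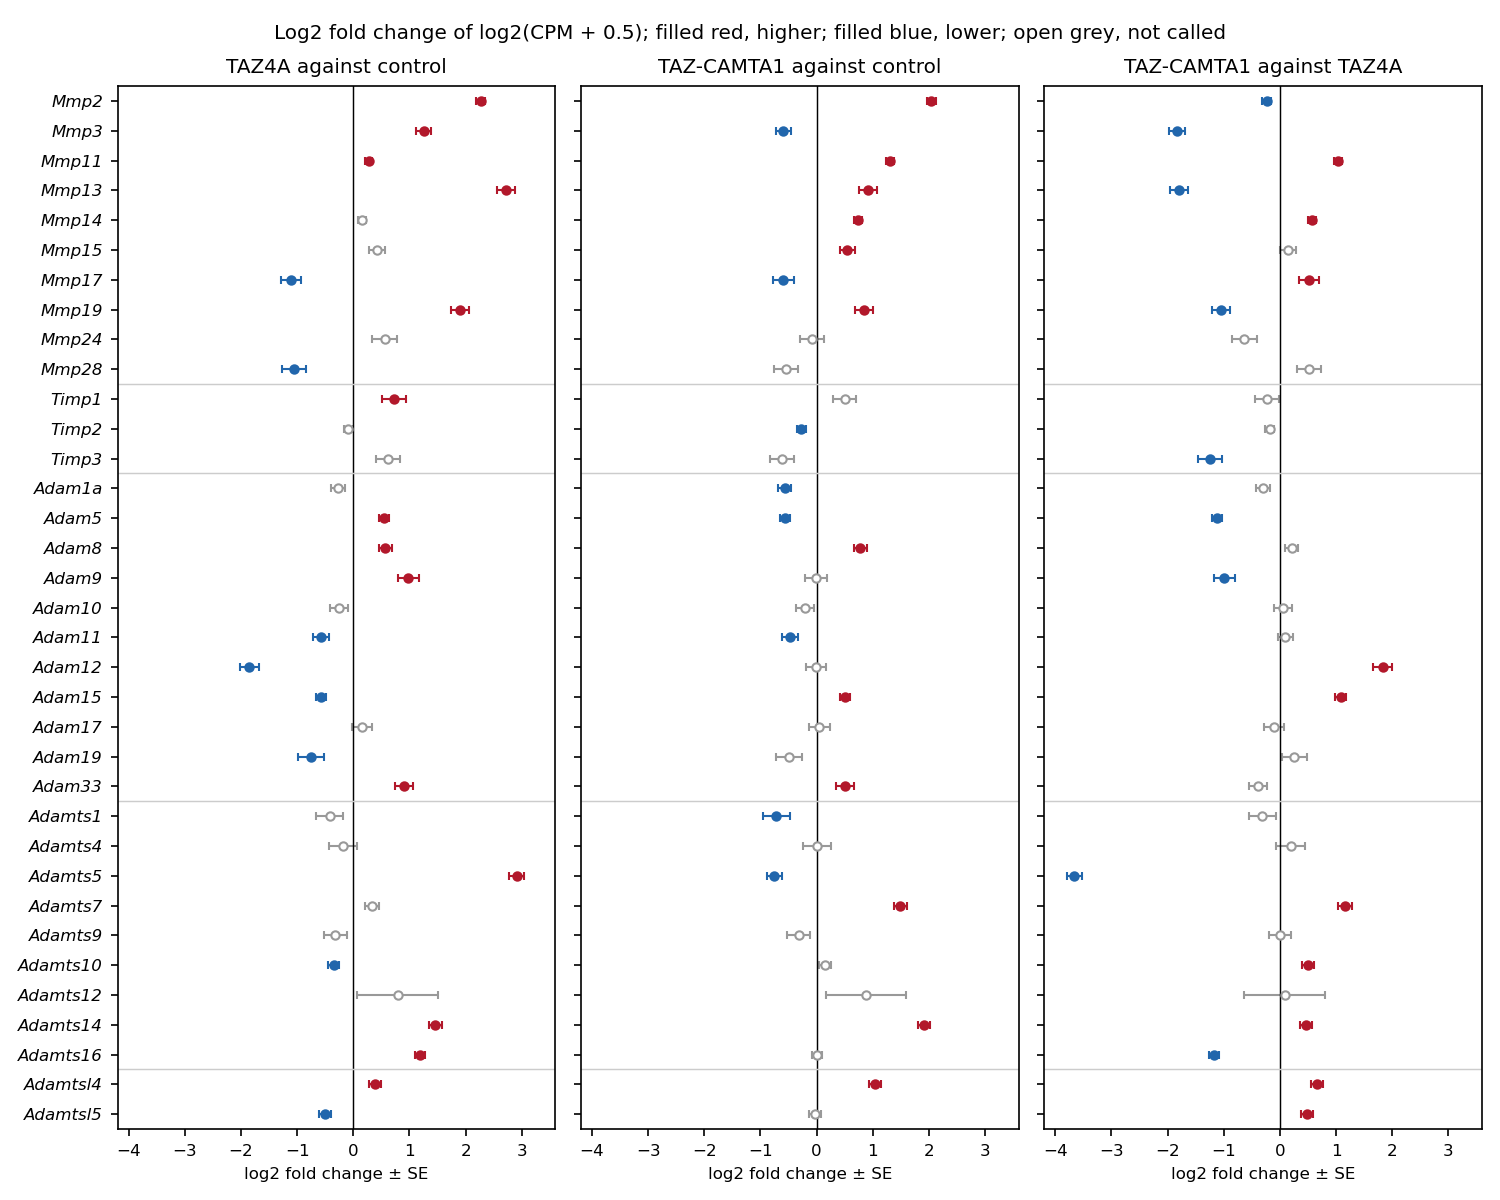
Log2 fold change with its standard error of the 35 members in the 3 comparisons, on the log2(CPM + 0.5) scale, grouped by family from Mmp at the top to Adamtsl at the bottom. Filled red points were called higher, filled blue points lower, and open grey points were not called. On this scale Adamts5 spans the widest range, at 2.91 in TAZ4A against control and -3.66 in TAZ-CAMTA1 against TAZ4A.

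The secreted Mmp genes held several of the wider changes. Mmp2, the gelatinase that cuts denatured collagen and type IV collagen, stood at 41.9, 47.1 and 40.3 CPM in TAZ-CAMTA1, at 51.5, 50.9 and 49.0 CPM in TAZ4A, and at 10.4, 10.1 and 9.84 CPM in control. Every library of both construct groups lay above every control library, and all TAZ4A libraries lay above all TAZ-CAMTA1 libraries. Its log2 fold change was 2.27 ± 0.08 in TAZ4A against control (limma adjusted p = 2.4e-07) and 2.04 ± 0.08 in TAZ-CAMTA1 against control (1.1e-06). Between the constructs it was -0.23 ± 0.08 (limma adjusted p = 0.049), a call that 13 of 22 alternative settings lost. Reads across Mmp2 junctions followed the gene totals, at 40.8, 48.5 and 9.51 RPM in TAZ-CAMTA1, TAZ4A and control on average. The gene spans 92827328 to 92853420 on chromosome 8 of mm10. The other gelatinase, Mmp9, had 0 reads in TAZ-CAMTA1, 3 in TAZ4A and 2 in control over the 3 libraries of each group.

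Mmp13, a collagenase that cuts fibrillar collagen, and Mmp3, a stromelysin that cuts proteoglycans and fibronectin and activates other MMPs, lie in a cluster of 8 members on mouse chromosome 9. It runs over 308.9 kb from Mmp13 to Mmp27, and the order along the chromosome is Mmp13, Mmp12, Mmp1b, Mmp3, Mmp1a, Mmp10, Mmp8 and Mmp27. Of these, Mmp13, Mmp3, Mmp10 and Mmp27 were called higher in TAZ4A against control, and their upstream sequences are shown because these neighbours were high in the same group. Each line gives 250 bases upstream of the transcription start from RefSeq on GRCm38.p6 (the build of mm10), plus strand, 5′ to 3′, with capitals marking the AP-1 motif. AP-1 factors, of the Jun and Fos families, are textbook regulators of MMP genes, and their motif was searched as TGANTCA, which reads the same on both strands.

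Mmp13, chr9:7272264-7272513: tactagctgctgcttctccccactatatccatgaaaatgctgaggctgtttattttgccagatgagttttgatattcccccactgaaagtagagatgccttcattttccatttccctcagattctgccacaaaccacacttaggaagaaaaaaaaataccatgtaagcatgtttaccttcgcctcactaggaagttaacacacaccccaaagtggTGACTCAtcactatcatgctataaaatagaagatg

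Mmp3, chr9:7445572-7445821: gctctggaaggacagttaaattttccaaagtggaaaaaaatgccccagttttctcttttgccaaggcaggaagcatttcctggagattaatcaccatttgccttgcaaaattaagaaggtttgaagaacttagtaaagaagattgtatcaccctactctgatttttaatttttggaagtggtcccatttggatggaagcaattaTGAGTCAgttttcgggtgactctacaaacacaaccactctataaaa

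Mmp10, chr9:7502092-7502341: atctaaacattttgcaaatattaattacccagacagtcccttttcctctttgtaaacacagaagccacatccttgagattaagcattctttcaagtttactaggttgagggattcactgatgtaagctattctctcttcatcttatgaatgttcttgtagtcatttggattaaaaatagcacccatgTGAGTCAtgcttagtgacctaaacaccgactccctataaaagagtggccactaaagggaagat

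Mmp27, chr9:7571146-7571395: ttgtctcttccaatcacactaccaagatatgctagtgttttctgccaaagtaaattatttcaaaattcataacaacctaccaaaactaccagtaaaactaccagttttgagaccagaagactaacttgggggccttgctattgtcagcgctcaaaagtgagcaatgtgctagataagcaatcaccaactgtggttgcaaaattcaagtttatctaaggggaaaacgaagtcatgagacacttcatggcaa

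The motif was found at position -35 of Mmp13, -46 of Mmp3 and -63 of Mmp10, counted back from the start, and in none of these bases of Mmp27. Of the 8 cluster members 6 held it, with Mmp12, Mmp1a and Mmp1b at positions -44, -73 and -93, although no group mean of these 3 was over 0.142 CPM. Among all 42 members with an entry in the promoter table, the motif was in 7, the last being 1 of 3 listed starts of Adam19. It was present in 6.75% of 32851 mouse promoters of the same length. The TEAD motif, searched as GGAATG on both strands separately from the AP-1 motif, was found in 3 of the 42 members (Adam19, Adamts13 and Timp1) and in 12.6% of promoters. A match describes letters in this window and not a bound site.

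Mmp13 (mm10 chromosome 9, 7272514 to 7283333) stood at 0.772, 0.403 and 0.785 CPM in TAZ-CAMTA1, at 3.31, 3.69 and 3.38 CPM in TAZ4A, and at 0.0464, 0.209 and 0.0627 CPM in control. The 3 groups did not overlap, and control rested on 1, 7 and 2 reads per library. The log2 fold change was 2.72 ± 0.16 in TAZ4A against control (limma adjusted p = 7.7e-06), 0.92 ± 0.16 in TAZ-CAMTA1 against control (0.0035) and -1.80 ± 0.16 in TAZ-CAMTA1 against TAZ4A (7.4e-05), values that understate the change of a gene this low. Mmp3 (7445822 to 7455974) stood at 1.73, 2.52 and 2.05 CPM in TAZ-CAMTA1, at 8.67, 8.92 and 8.44 CPM in TAZ4A, and at 2.97, 3.98 and 3.23 CPM in control. Control thus lay between the constructs, without overlap. It rose in TAZ4A against control (log2 fold change 1.25 ± 0.14, limma adjusted p = 2.4e-04), fell in TAZ-CAMTA1 against control (-0.59 ± 0.14, limma adjusted p = 0.013) and was lower in TAZ-CAMTA1 than in TAZ4A (-1.83 ± 0.14, limma adjusted p = 2.6e-05).

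The cluster's low members were read from a fit with no minimum level, which called 11.8% of 17565 genes higher and 7.88% lower in TAZ4A against control. Mmp10, a second stromelysin, had 3, 2 and 1 reads in TAZ-CAMTA1, 13, 9 and 16 reads in TAZ4A and 0 reads in every control library. Its mean of 0.386 CPM in TAZ4A was at least 3.58-fold higher than a level of 3 reads in each control library. Mmp27 had 6, 3 and 1 reads in TAZ-CAMTA1, 19, 14 and 16 in TAZ4A and 2, 3 and 1 in control (log2 fold change 0.80 ± 0.10 in TAZ4A against control, limma adjusted p = 6.6e-04, and -0.71 ± 0.10 in TAZ-CAMTA1 against TAZ4A, limma adjusted p = 0.0011). Those 2 genes were the cluster's further calls in TAZ4A against control toward higher levels, while Mmp1b with 2, 3 and 9 reads in TAZ4A was not called (limma adjusted p = 0.099). Mmp1a was called lower there (limma adjusted p = 0.037), on 1 read in TAZ4A and 5 reads in control in all. Mmp12 and Mmp8 were at no more than 0.0514 CPM in the mean of any group.

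**Figure D3:**
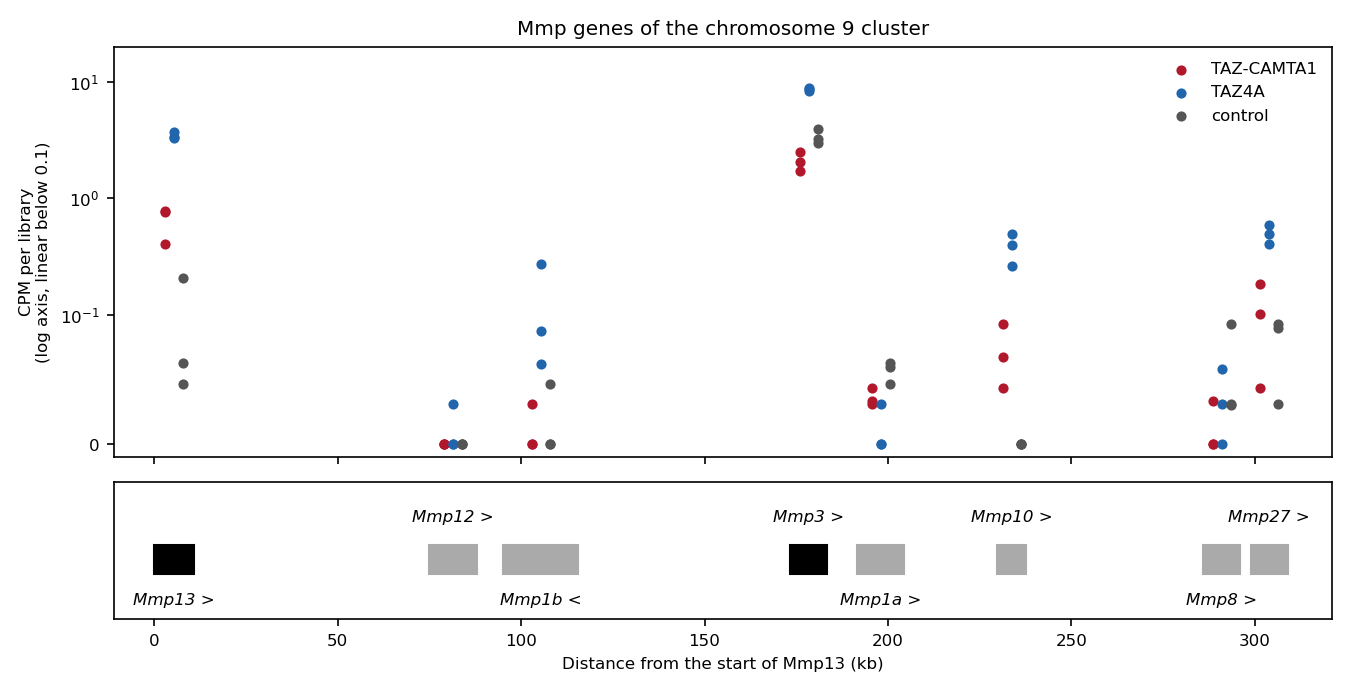
Upper panel, CPM of each library for the 8 Mmp genes of the chromosome 9 cluster (log axis, linear below 0.1), placed by distance in kb from the start of Mmp13. Lower panel, the genes to scale with arrowheads for strand, black where the gene reached 0.5 CPM in 3 libraries and grey where it did not. All TAZ4A libraries lie above all control libraries at Mmp13, Mmp1b, Mmp3, Mmp10 and Mmp27, of which Mmp1b was not called.

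Mmp11, stromelysin-3, a protease activated inside the cell by furin, followed another order. It stood at 31.6, 34.3 and 30.7 CPM in TAZ-CAMTA1, at 15.4, 15.3 and 15.6 CPM in TAZ4A, and at 12.8, 12.5 and 12.8 CPM in control. All 3 groups were apart, and TAZ-CAMTA1 was highest. It rose by 1.31 ± 0.07 on the log2 scale in TAZ-CAMTA1 against control (limma adjusted p = 6.2e-06), by 1.04 ± 0.07 in TAZ-CAMTA1 against TAZ4A (1.5e-05) and by 0.27 ± 0.07 in TAZ4A against control (0.022), a call that 8 of 22 alternatives lost. Without TAZ-CAMTA1 replicate 2 the first 2 values were 1.26 and 0.99.

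Mmp19, which cuts basement membrane proteins, stood at 1.02, 0.974 and 1.31 CPM in TAZ-CAMTA1, at 2.94, 3.13 and 2.36 CPM in TAZ4A, and at 0.232, 0.389 and 0.564 CPM in control. The groups did not overlap. The log2 fold change was 1.90 ± 0.16 in TAZ4A against control (limma adjusted p = 5.8e-05), 0.85 ± 0.16 in TAZ-CAMTA1 against control (0.0050) and -1.05 ± 0.16 between the constructs (0.0014). Mmp19 shares 789 bases with Tmem198b on the opposite strand, which stood at 26.7 to 55.2 CPM, and whether counting used strand is not given. Reads across Mmp19 junctions, which carry the strand of the intron, averaged 0.735, 1.33 and 0.171 RPM in TAZ-CAMTA1, TAZ4A and control. Mmp28, epilysin, ran the other way in TAZ4A, at 7.07, 3.83 and 5.84 CPM in TAZ-CAMTA1, at 3.90, 3.95 and 3.10 CPM in TAZ4A, and at 7.01, 8.16 and 9.37 CPM in control. All TAZ4A libraries lay below all control libraries (log2 fold change -1.06 ± 0.21, limma adjusted p = 0.0059), and TAZ-CAMTA1 overlapped both other groups. TAZ-CAMTA1 gave -0.54 ± 0.21 against control (limma adjusted p = 0.078) and 0.52 ± 0.21 against TAZ4A (0.080), and without its replicate 2 these were -0.32 (0.047) and 0.75 (1.3e-04).

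Membrane-type MMPs, which sit at the cell surface, were 4 of the 35. Mmp14, or MT1-MMP, which activates Mmp2 together with Timp2, averaged 322 ± 12.1 CPM in TAZ-CAMTA1, 217 ± 5.35 CPM in TAZ4A and 194 ± 7.24 CPM in control. It rose in TAZ-CAMTA1 against control (log2 fold change 0.73 ± 0.07, limma adjusted p = 9.7e-05) and against TAZ4A (0.57 ± 0.07, 2.8e-04), and its 0.16 ± 0.07 in TAZ4A against control was not called (limma adjusted p = 0.12, and 0.0056 without TAZ-CAMTA1 replicate 2). Mmp15 averaged 3.38, 3.00 and 2.12 CPM in TAZ-CAMTA1, TAZ4A and control and was called higher in TAZ-CAMTA1 against control (limma adjusted p = 0.018). Mmp17, anchored by a lipid, averaged 0.814, 0.411 and 1.46 CPM in the same order and fell in both constructs against control. On the log2 scale it fell by 0.59 in TAZ-CAMTA1 and by 1.11 in TAZ4A (limma adjusted p = 0.036 and 0.0021). The call in TAZ-CAMTA1 was lost in 9 alternatives. Mmp24, at 0.809, 1.48 and 0.873 CPM, was not called with all libraries. Without TAZ-CAMTA1 replicate 2 it was 0.56 in TAZ4A against control (limma adjusted p = 0.0065) and -0.86 between the constructs (5.0e-04), and it shares 635 bases with BC029722 on the opposite strand, which stood at 66.5 to 138 CPM. Its own junctions held at most 0.303 RPM in any library.

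The Timp genes were among the most abundant members, and they did not move together. Timp1 stood at 42.0, 79.3 and 45.6 CPM in TAZ-CAMTA1, at 62.1, 64.9 and 60.8 CPM in TAZ4A, and at 35.8, 41.0 and 36.5 CPM in control. TAZ4A lay above control (log2 fold change 0.72 ± 0.21, limma adjusted p = 0.037, lost in 7 of 22 alternatives), and TAZ-CAMTA1 replicate 2 alone lay above TAZ4A. Against control TAZ-CAMTA1 was not called (0.50 ± 0.21, limma adjusted p = 0.11), and without replicate 2 the value was 0.21 (limma adjusted p = 0.010). Against TAZ4A it was -0.23 ± 0.21 (limma adjusted p = 0.42), and -0.51 without that library (4.8e-06). Timp2, which also takes part in the activation of Mmp2, stood at 337, 302 and 362 CPM in TAZ-CAMTA1, at 377, 379 and 371 CPM in TAZ4A, and at 418, 387 and 399 CPM in control. The ranges were narrow and in that order. It fell in TAZ-CAMTA1 against control (log2 fold change -0.27 ± 0.08, limma adjusted p = 0.034), a call that 11 of 22 alternatives lost.

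Timp3, which binds the matrix and also inhibits ADAM17 and aggrecanases, stood at 248, 132 and 243 CPM in TAZ-CAMTA1, at 477, 463 and 479 CPM in TAZ4A, and at 304, 302 and 316 CPM in control. No groups overlapped, with TAZ4A highest and TAZ-CAMTA1 lowest. It was lower in TAZ-CAMTA1 than in TAZ4A (log2 fold change -1.24 ± 0.21, limma adjusted p = 0.0023; -0.94 without TAZ-CAMTA1 replicate 2). Against control its values of 0.62 ± 0.21 in TAZ4A and -0.62 ± 0.21 in TAZ-CAMTA1 missed the threshold with all libraries (limma adjusted p = 0.068 and 0.057). Both passed without TAZ-CAMTA1 replicate 2 (log2 fold change 0.62, limma adjusted p = 1.1e-09, and -0.32, limma adjusted p = 1.2e-05). Timp4 had 1 read in the 9 libraries. Timp1 lies inside Syn1 and Timp3 inside Syn3, neuronal genes on the opposite strand that stayed at or below 1.97 CPM.

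**Figure D4:**
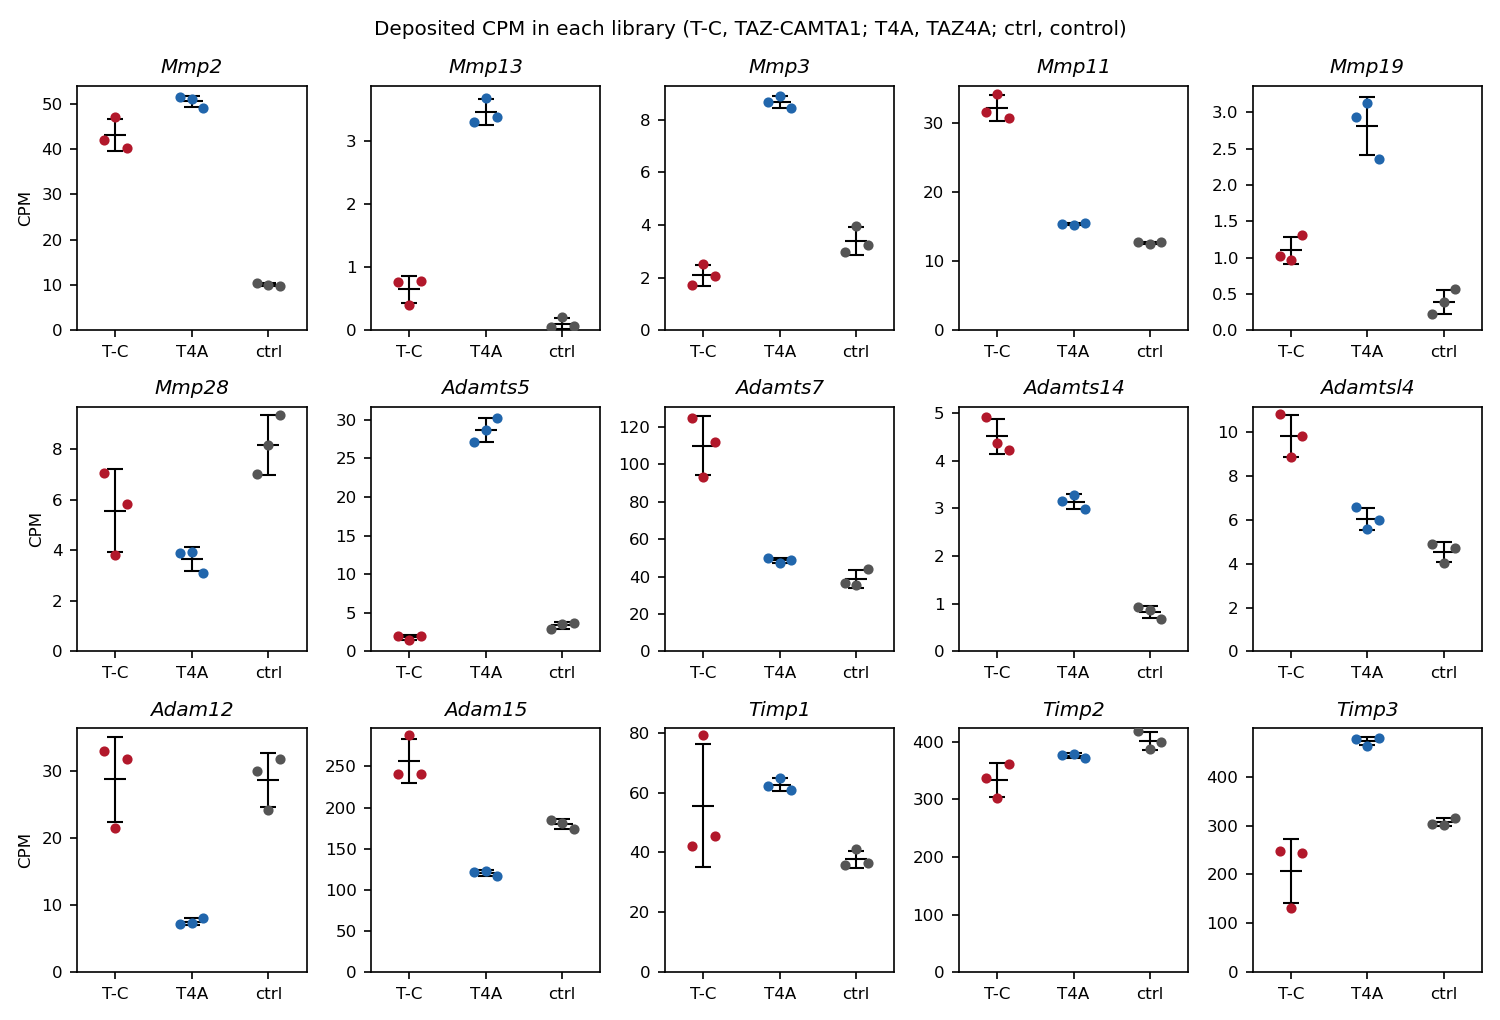
Deposited CPM of each library for the 13 members with a called log2 fold change of at least 1 and at least 2 CPM, and for the other Timp genes above the minimum. Points are libraries, the horizontal mark is the mean and the bars are ± SD (n = 3), with TAZ-CAMTA1 left, TAZ4A middle and control right in each panel. Adamts5, Mmp13 and Mmp3 are highest in TAZ4A, Mmp11, Adamts7 and Adam15 in TAZ-CAMTA1, and Adam12 is lowest in TAZ4A.

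Among the ADAMTS proteases of the versican and aggrecan kind, Adamts5 had the widest change. Adamts5, aggrecanase-2 (mm10 chromosome 16, 85858157 to 85901125), stood at 2.04, 1.44 and 1.96 CPM in TAZ-CAMTA1, at 27.1, 28.6 and 30.2 CPM in TAZ4A, and at 2.88, 3.56 and 3.70 CPM in control. The lowest TAZ4A library lay far above every other library, and TAZ-CAMTA1 lay below control without overlap. The log2 fold change was 2.91 ± 0.13 in TAZ4A against control (limma adjusted p = 1.5e-06), -0.75 ± 0.13 in TAZ-CAMTA1 against control (0.0033) and -3.66 ± 0.13 in TAZ-CAMTA1 against TAZ4A (4.2e-07). Junction reads gave 0.307, 8.20 and 1.20 RPM in TAZ-CAMTA1, TAZ4A and control.

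Adamts1, which cuts versican and is also known for restraining vessel growth, lies 55.0 kb from Adamts5 on the same chromosome and did not share its pattern. It averaged 488 ± 168 CPM in TAZ-CAMTA1, 576 ± 8.30 CPM in TAZ4A and 769 ± 23.4 CPM in control. The only call was lower in TAZ-CAMTA1 against control (log2 fold change -0.72 ± 0.24, limma adjusted p = 0.047), which 11 of 22 alternatives lost. There replicate 2 stood at 294 CPM against 575 and 594 CPM in the other TAZ-CAMTA1 libraries and the value without it was -0.39 (limma adjusted p = 1.3e-06). TAZ4A against control gave -0.42 ± 0.24 (limma adjusted p = 0.26, and 1.5e-07 without that library). Adamts4, aggrecanase-1, averaged 162 ± 57.6, 135 ± 4.12 and 153 ± 11.6 CPM in TAZ-CAMTA1, TAZ4A and control. Adamts9, a broadly expressed versicanase, averaged 25.9 ± 7.80, 25.0 ± 1.06 and 31.3 ± 1.70 CPM. Neither was called with all libraries, and both had their lowest TAZ-CAMTA1 value in replicate 2. Without it Adamts4 was called in all 3 comparisons, at -0.18 in TAZ4A against control (limma adjusted p = 0.0071), 0.35 in TAZ-CAMTA1 against control (8.1e-05) and 0.54 between the constructs (8.3e-07), where all libraries gave -0.18, 0.01 and 0.19. Adamts9 was then called at -0.32 in TAZ4A against control (limma adjusted p = 2.2e-04) and at 0.28 between the constructs (0.0016).

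Adamts14, a procollagen N-proteinase that trims fibrillar procollagens, stood at 4.91, 4.37 and 4.23 CPM in TAZ-CAMTA1, at 3.16, 3.28 and 2.98 CPM in TAZ4A, and at 0.929, 0.867 and 0.689 CPM in control. The 3 groups were apart, with every construct library above control. The log2 fold change was 1.91 ± 0.11 in TAZ-CAMTA1 against control (limma adjusted p = 6.3e-06), 1.46 ± 0.11 in TAZ4A against control (1.9e-05) and 0.46 ± 0.11 between the constructs (0.0094). Its relative Adamts2 stayed below the minimum, with 22, 13 and 17 reads in TAZ-CAMTA1, 7, 5 and 8 in TAZ4A and 2, 2 and 1 in control, and was called in TAZ-CAMTA1 against control by the fit with no minimum (log2 fold change 0.99 ± 0.11, limma adjusted p = 4.6e-04), which called 12.6% of genes higher and 9.99% lower there and 13.7% and 14.6% in TAZ-CAMTA1 against TAZ4A.

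Adamts7 and Adamts12, close relatives that cut cartilage oligomeric matrix protein, were both higher in replicates 1 and 3 of TAZ-CAMTA1 than in the other groups. Adamts7 stood at 125, 93.2 and 112 CPM in TAZ-CAMTA1, at 50.2, 47.1 and 48.6 CPM in TAZ4A, and at 36.7, 35.5 and 44.0 CPM in control. All TAZ-CAMTA1 libraries were above all others. It rose by 1.49 ± 0.12 against control (limma adjusted p = 6.9e-05) and by 1.16 ± 0.12 against TAZ4A (1.7e-04) on the log2 scale, or by 1.61 and 1.28 without TAZ-CAMTA1 replicate 2. Adamts12 stood at 13.2, 1.21 and 14.3 CPM in TAZ-CAMTA1, and averaged 6.14 ± 0.693 CPM in TAZ4A and 3.40 ± 0.867 CPM in control. Replicate 2 lay below every other library of the study. With all libraries no comparison called it (log2 fold change 0.88 ± 0.72 in TAZ-CAMTA1 against control, limma adjusted p = 0.38). Without replicate 2 the values were 1.90 in TAZ-CAMTA1 against control (limma adjusted p = 1.8e-08), 0.79 in TAZ4A against control (7.3e-05) and 1.11 between the constructs (5.9e-06).

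Adamts10, which binds fibrillin microfibrils, averaged 34.9, 24.5 and 31.4 CPM in TAZ-CAMTA1, TAZ4A and control, lower in TAZ4A than in control (log2 fold change -0.35 ± 0.10, limma adjusted p = 0.027, lost in 9 of 22 alternatives). Adamts16 had 0 reads in all TAZ-CAMTA1 and control libraries and 23, 20 and 20 reads in TAZ4A. Its mean of 0.637 CPM in TAZ4A was at least 5.89-fold higher than a level of 3 reads in each TAZ-CAMTA1 library, and for control libraries the bound was at least 5.92-fold higher. Adamtsl4, an ADAMTS-like protein of the fibrillin matrix, stood at 10.8, 8.87 and 9.81 CPM in TAZ-CAMTA1, at 6.56, 5.56 and 5.98 CPM in TAZ4A, and at 4.88, 4.01 and 4.70 CPM in control. No groups overlapped (log2 fold change 1.04 ± 0.11 in TAZ-CAMTA1 against control, limma adjusted p = 2.6e-04, and 0.38 ± 0.11 in TAZ4A against control, limma adjusted p = 0.040, the second lost in 9 of 22 alternatives). Adamtsl5 averaged 30.4, 21.5 and 31.0 CPM and fell in TAZ4A against control (-0.51 ± 0.11, limma adjusted p = 0.0088).

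The ADAM sheddases included some of the most abundant members per transcript length. Adam10 and Adam17, which release Notch, cadherins, TNF and EGF-family ligands, passed no test with all libraries. Adam10 averaged 339 ± 78.8 CPM in TAZ-CAMTA1, 319 ± 12.0 CPM in TAZ4A and 382 ± 22.5 CPM in control, and Adam17 averaged 291 ± 75.4, 307 ± 8.89 and 274 ± 8.70 CPM. In TAZ4A against control their log2 fold changes were -0.26 ± 0.16 and 0.16 ± 0.18. Without TAZ-CAMTA1 replicate 2 both passed there, at the same sizes (limma adjusted p = 2.0e-04 and 0.0038). Adam17 then also passed in TAZ-CAMTA1 against control, at 0.29 (limma adjusted p = 7.0e-05) in place of 0.05 ± 0.18. Between the constructs Adam10 gave 0.27 (limma adjusted p = 3.5e-04) in place of 0.06 ± 0.16, and Adam17 gave 0.13 (0.027) in place of -0.11 ± 0.18.

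Adam9, a sheddase with a broad range of reported substrates, averaged 298 ± 85.2 CPM in TAZ-CAMTA1, 577 ± 14.6 CPM in TAZ4A and 292 ± 12.3 CPM in control. All TAZ4A libraries, at 563 to 592 CPM, lay above all others. The log2 fold change was 0.98 ± 0.19 in TAZ4A against control (limma adjusted p = 0.0063) and -0.99 ± 0.19 in TAZ-CAMTA1 against TAZ4A (0.0044; -0.73 without TAZ-CAMTA1 replicate 2). In TAZ-CAMTA1 against control it was -0.01 ± 0.19 (limma adjusted p = 0.96), and 0.25 without replicate 2 (2.6e-04). Adam5, a gene known from sperm, lies 125.2 kb from Adam9 on chromosome 8 and was also highest in TAZ4A, at 0.366, 1.38 and 0.789 CPM in TAZ-CAMTA1, TAZ4A and control on average. All 3 comparisons called it (limma adjusted p = 0.0014 in TAZ-CAMTA1 against control, 0.0019 in TAZ4A against control and 2.9e-05 between the constructs). Adam32, which lies between them, had 37 reads in TAZ4A and 25 in control in all and was not called.

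Adam12 and Adam19, the meltrins, and Adam15 were lower in TAZ4A than in control. Adam12, meltrin alpha, which cuts insulin-like growth factor binding proteins and heparin-binding EGF, stood at 32.9, 21.5 and 31.7 CPM in TAZ-CAMTA1, at 7.21, 7.34 and 8.10 CPM in TAZ4A, and at 29.9, 24.1 and 31.8 CPM in control. TAZ4A lay apart, and TAZ-CAMTA1 and control overlapped. It fell by 1.85 ± 0.17 on the log2 scale in TAZ4A against control (limma adjusted p = 9.2e-05) and was higher in TAZ-CAMTA1 than in TAZ4A (1.83 ± 0.17, limma adjusted p = 8.4e-05). In TAZ-CAMTA1 against control the value was -0.01 ± 0.17 (limma adjusted p = 0.97), and 0.18 without replicate 2 (0.11). Adam19, meltrin beta, averaged 160 ± 53.5 CPM in TAZ-CAMTA1, 127 ± 0.177 CPM in TAZ4A and 215 ± 14.3 CPM in control, and was called in TAZ4A against control (-0.75 ± 0.23, limma adjusted p = 0.046), a call that 10 of 22 alternatives lost. Without TAZ-CAMTA1 replicate 2 its value between the constructs was 0.58 (limma adjusted p = 1.6e-07) in place of 0.26 ± 0.23, and in TAZ-CAMTA1 against control it was -0.17 (0.013) in place of -0.49 ± 0.23.

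Adam15, whose disintegrin domain binds integrins and which is found at endothelial junctions, stood at 241, 288 and 241 CPM in TAZ-CAMTA1, at 122, 123 and 117 CPM in TAZ4A, and at 185, 181 and 174 CPM in control. Control lay between the constructs, with no overlap. It rose in TAZ-CAMTA1 against control (log2 fold change 0.50 ± 0.09, limma adjusted p = 0.0026), fell in TAZ4A against control (-0.58 ± 0.09, 0.0013), and was higher in TAZ-CAMTA1 than in TAZ4A (1.08 ± 0.09, 3.1e-05). Reads across its junctions averaged 476, 219 and 316 RPM in TAZ-CAMTA1, TAZ4A and control. Adam8, known from leukocytes, averaged 12.5, 10.7 and 7.05 CPM and rose in both constructs against control (0.78 ± 0.11 in TAZ-CAMTA1, limma adjusted p = 8.3e-04, and 0.57 ± 0.11 in TAZ4A, limma adjusted p = 0.0046). Ptprc, the pan-leukocyte marker, was at no more than 0.186 CPM in any library, while Cd68 stood at 394 to 703 CPM in all of them. Adam33 averaged 0.368, 0.639 and 0.107 CPM and was called higher in both constructs. The call in TAZ-CAMTA1 was lost in 10 alternatives, among them the fit without replicate 2 (0.40, limma adjusted p = 0.061, in place of 0.51 ± 0.16). Adam11, which lacks the catalytic residues, averaged 0.709, 0.629 and 1.17 CPM and was called lower in both constructs. Its call in TAZ-CAMTA1 was lost in 8 alternatives. The sperm gene Adam1a averaged 1.19, 1.59 and 2.03 CPM and was called lower in TAZ-CAMTA1 alone against control, where TAZ4A gave -0.27 ± 0.12 (limma adjusted p = 0.15).

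Levels of different genes were compared in TPM. In control the most abundant members were Adamts1 (383 TPM), Timp2 (270 TPM), Adam10 (203 TPM), Mmp14 (181 TPM) and Adam9 (176 TPM). Adam9 led in TAZ4A at 360 TPM, ahead of Adamts1 at 297 and Timp2 at 261 TPM, and Mmp14 led in TAZ-CAMTA1 at 290 TPM, ahead of Adamts1 at 240 and Timp2 at 217 TPM. Mmp2 stood 14th of 64 in TAZ-CAMTA1 (32.9 TPM), 12th in TAZ4A (41.8 TPM) and 19th in control (8.07 TPM). Adamts5 stood 31st, 19th and 27th. Summed over all Mmp genes the libraries held 323 to 405 TPM in TAZ-CAMTA1, 289 to 301 TPM in TAZ4A and 214 to 224 TPM in control, so both constructs lay above control, and TAZ-CAMTA1 replicate 2 was the lowest of its group. Most of each sum was Mmp14, at a mean of 290 of 370 TPM in TAZ-CAMTA1, 210 of 296 in TAZ4A and 181 of 220 in control. Summed Timp transcripts were 406 to 510 TPM in TAZ-CAMTA1, 692 to 695 TPM in TAZ4A and 519 to 542 TPM in control, again without overlap. Adam and Adamts sums had their lowest values of the study in TAZ-CAMTA1 replicate 2, at 541 and 233 TPM, against 897 and 918 TPM and 527 and 536 TPM in the other TAZ-CAMTA1 libraries. Within members, 35 splice junctions shared a splice site with another where the junctions of that site held at least 20 reads together in every library. None differed between groups by 10 percentage points or more in its share (largest difference 7.51 points). Only 2 of the 35, both of Adamtsl5, averaged 10% to 90% of the reads of their site. The others had little room to differ by that much in at least 1 direction, so this comparison says little about them.

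**Figure D5:**
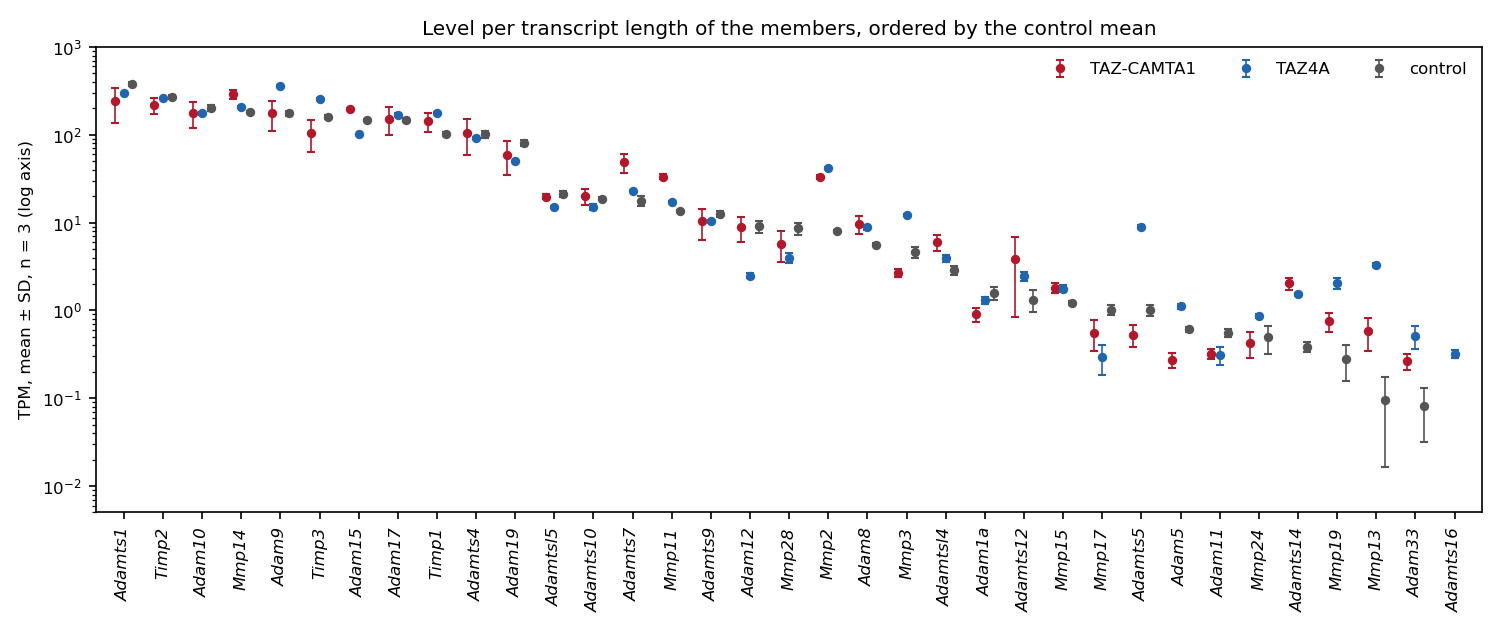
TPM of the 35 members by group, mean ± SD of 3 libraries on a log axis, ordered by the control mean. Adamts1 leads in control at 383 TPM, Adam9 in TAZ4A at 360 TPM and Mmp14 in TAZ-CAMTA1 at 290 TPM, and the widest SDs among abundant members are in TAZ-CAMTA1. Adamts16 is drawn in TAZ4A only, since it was at 0 in the other groups.

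The proteins around these proteases were taken from lists chosen by role. Of 23 tested regulators (inhibitors, activators and chaperones of the proteases), 5 were higher and 8 lower in TAZ4A against control, 10 and 3 in TAZ-CAMTA1 against control, and 11 and 3 in TAZ-CAMTA1 against TAZ4A, with median log2 fold changes of -0.25, 0.46 and 0.29. Of all genes, 13.2% were higher and 11.7% lower in the first, 16.8% and 15.3% in the second and 19.4% and 18.5% in the third, with medians of -0.01, -0.03 and -0.02. Plat, the tissue plasminogen activator, averaged 510, 159 and 271 CPM in TAZ-CAMTA1, TAZ4A and control, and was called higher in TAZ-CAMTA1 against control (log2 fold change 0.90 ± 0.11, limma adjusted p = 4.6e-04). Furin, the convertase that activates Mmp11, Mmp14 and many ADAM and ADAMTS proteins, averaged 175, 75.2 and 107 CPM and was higher in TAZ-CAMTA1 than in TAZ4A (1.21 ± 0.09, limma adjusted p = 1.8e-05). Bmp1, the procollagen C-proteinase, followed at 187, 91.0 and 133 CPM. Its enhancer Pcolce averaged 0.622, 4.34 and 0.307 CPM and the related Pcolce2 averaged 8.42, 11.4 and 3.66 CPM, both called higher in TAZ4A against control. Pcolce reached 0.5 CPM in 3 libraries only with its TAZ4A libraries, so that call is not independent of the minimum. Pcolce2 was also called higher in TAZ-CAMTA1 against control (log2 fold change 1.09 ± 0.14, limma adjusted p = 5.6e-04). Rhbdf2, which brings ADAM17 to the surface, averaged 41.2, 27.8 and 22.6 CPM and rose in TAZ-CAMTA1 against control (0.85 ± 0.07, limma adjusted p = 7.6e-05).

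Of 21 tested substrates that ADAM10 or ADAM17 release, 11 were higher and 3 lower in TAZ4A against control (13.2% and 11.7% of all genes), 7 and 2 in TAZ-CAMTA1 against control (16.8% and 15.3%), and 6 and 7 in TAZ-CAMTA1 against TAZ4A (19.4% and 18.5%). Their median log2 fold changes were 0.58, -0.01 and 0.07. The proteoglycan Sdc4 averaged 53.1, 38.2 and 9.50 CPM in TAZ-CAMTA1, TAZ4A and control, and the chemokine Cx3cl1 averaged 3.74, 1.54 and 0.410 CPM. The adhesion molecule Vcam1 averaged 160, 327 and 118 CPM, the EGF-family ligand Ereg 21.2, 70.6 and 28.6 CPM, and the hyaluronan receptor Cd44 233, 498 and 232 CPM, and these 3 were highest in TAZ4A. Another EGF-family ligand, Btc, averaged 3.68, 1.50 and 0.836 CPM and rose in TAZ-CAMTA1 against control (log2 fold change 1.62 ± 0.17, limma adjusted p = 2.4e-04).

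Of 19 tested matrix substrates, 10 were higher and 3 lower in TAZ4A against control (13.2% and 11.7% of all genes), 7 and 2 in TAZ-CAMTA1 against control (16.8% and 15.3%), and 6 and 4 in TAZ-CAMTA1 against TAZ4A, where 19.4% and 18.5% of all genes were called. Their median log2 fold changes were 0.87, 0.39 and 0.23. Dcn, counted as higher in TAZ4A against control, reached 0.5 CPM in TAZ4A libraries alone, so its call is not independent of the minimum. Ltbp1, which holds latent TGF-beta in the matrix, averaged 2.70 ± 0.913 CPM in TAZ-CAMTA1, 37.1 ± 0.246 CPM in TAZ4A and 12.1 ± 1.28 CPM in control, with control between the constructs as for Mmp3, Adamts5 and Timp3. It fell by 2.02 ± 0.20 on the log2 scale in TAZ-CAMTA1 against control (limma adjusted p = 1.6e-04) and rose by 1.58 ± 0.20 in TAZ4A against control (5.4e-04). Col18a1, a basement membrane collagen and the source of endostatin, averaged 10.6, 4.97 and 2.27 CPM, and Lamb1, a laminin chain, averaged 416, 351 and 158 CPM. Thbs1, an inhibitor of vessel growth that binds the Mmp2 protein, averaged 834 ± 325, 2108 ± 18.9 and 795 ± 47.5 CPM and was lower in TAZ-CAMTA1 than in TAZ4A (log2 fold change -1.43 ± 0.27, limma adjusted p = 0.0041). Vwf, the substrate of Adamts13, averaged 6.87, 2.09 and 3.05 CPM, and Adamts13 itself had 3 reads in TAZ-CAMTA1, 0 in TAZ4A and 1 in control in all.

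Below the minimum, 7 of 29 members had a group mean over 0.2 CPM, namely Adamts2, Adamts6, Mmp23, Adamtsl3, Adam32, Mmp10 and Mmp27. Adamts6 averaged 0.0394, 0.415 and 0.107 CPM in TAZ-CAMTA1, TAZ4A and control and was called in TAZ4A against control by the fit with no minimum (log2 fold change 0.58 ± 0.11, limma adjusted p = 0.0073). Adamtsl3 had 0 reads in TAZ-CAMTA1, 8, 7 and 5 reads in TAZ4A, and 1 read in control in all, and was called there too (0.46 ± 0.05, limma adjusted p = 3.6e-04). Mmp23 had 34, 24 and 25 reads in TAZ-CAMTA1, TAZ4A and control and was not called. The other 22 members stayed at or below that level in every group, among them the collagenases Mmp1a, Mmp1b and Mmp8, the macrophage elastase Mmp12, the gelatinase Mmp9, Timp4 and the sperm genes Adam2 and Adam3, and none of the 29 had 0 reads in all 9 libraries.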

How the data were processed

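Poly-A RNA of 9 MS1 libraries was prepared with a stranded kit and sequenced by Illumina HiSeq, per the labels' protocols. Per the submitters' processing notes, bcl2fastq, FastQC, STAR, featureCounts and edgeR were used on build mm10. Versions, and whether counting used strand, are not given in the sources used here. The deposited iGenomes gene table holds a signal the authors name CPM, reads divided by a scaled library size. Its sums per library were 976997 to 1028367, and 100% of values were whole multiples of a single read (tolerance 0.01), so whole reads could be recovered. The authors' TPM values, per transcript length, served to compare genes. Log2 fold changes and p-values adjusted to false discovery rates also stand in the authors' deposited table, and are credited to it where printed. The deposited junction files hold counts of reads over each intron, with 6410070 to 9889541 uniquely mapped per library. Scaled by those totals they are given as RPM, junction reads relative to 1000000.

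Groups and replicate numbers came from the sample titles. Differences were tested on log2(CPM + 0.5) in R 4.3.3 with the trended, robust form of limma 3.58.1. The 9 libraries shared 1 model with 6 residual degrees of freedom. It covered genes at 0.5 CPM in at least 3 libraries, Benjamini-Hochberg adjusted over all of them, threshold 0.05. On that scale the fold of a low gene comes out too small. The planned unit was CPM, and since the sums are not equal the values were entered as signal with the test unchanged. The fit was tried on simulated data in which all libraries had the same spread. That trial does not cover a library that differs from its group, as TAZ-CAMTA1 replicate 2 did. Values in every library are given for members called with a log2 fold change of at least 1 in size and at least 2 CPM in the higher group, and for the Timp genes. Members below the minimum are named over 0.2 CPM, and up to 4 called genes are named per list and comparison. The members and lists were chosen with earlier results of these data known. Coordinates are those of the deposited mm10 table, counted from 1, and introns came from GENCODE vM21. The 22 alternatives cover pseudocounts of 0.1 and 2, no minimum or 2 CPM, rescaled CPM, quantile normalization, TPM, the GENCODE vM4 table, only the 6 libraries compared, a replicate block, library quality weights, edgeR 4.0.16 quasi-likelihood and DESeq2 1.42.0 on the recovered reads, and each library left out.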

Additional observations from a re-analysis of the deposited data

How the results depend on the processing

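Of 61 called values of members, 42 kept their call in every alternative that tested them, 19 lost it in at least 1, and 0 changed direction. Members that did not reach 2 CPM in 3 libraries were not tested with that minimum, so fewer than 22 alternatives applied to them. Of the 44 values not called, 33 passed in some alternative. The calls lost most often were those of Mmp17 (14 alternatives) and Mmp2 (13) in TAZ-CAMTA1 against TAZ4A. With library quality weights, members lower in TAZ4A against control numbered 13 in place of 8, and members higher in TAZ-CAMTA1 against TAZ4A numbered 18 in place of 10. Members lower in TAZ-CAMTA1 against control numbered 4 in place of 8 with a minimum of 2 CPM, where fewer genes were tested, and 3 with only the 6 libraries compared. Leaving out single libraries gave 5 to 12 members lower in TAZ4A against control, with 5 without TAZ4A replicate 2, control replicate 1 or control replicate 3. It gave 4 to 11 lower in TAZ-CAMTA1 against control, with 4 without any control library and 5 without TAZ4A replicate 3, and 9 to 18 higher in TAZ-CAMTA1 against TAZ4A, with 18 without TAZ-CAMTA1 replicate 2. Higher members numbered 11 to 21 in TAZ4A against control and 10 to 17 in TAZ-CAMTA1 against control, and members lower in TAZ-CAMTA1 against TAZ4A numbered 8 to 12. Except where the construction is named, the cause was not tested.

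The 14 values that changed sign in an alternative were not called with the main settings, and 2 of them were called with the other sign, both with library weights and without TAZ-CAMTA1 replicate 2, namely Adam9 in TAZ-CAMTA1 against control and Adam17 between the constructs. In TAZ-CAMTA1 against control, Adam9 (-0.01) was 0.02 with rescaled CPM, 0.08 with quantile normalization, 0.24 with library weights, 0.05 with edgeR and 0.04 with DESeq2, and -0.15 to 0.25 without single libraries. Adamts4 (0.01) was -0.05 with TPM and -0.03 in the GENCODE table, and -0.16 to 0.35 without single libraries. Adam17 (0.05) was -0.01 with TPM and -0.08 to 0.29 without single libraries. Adam12 (-0.01) was 0.03 with rescaled CPM, 0.01 with quantile normalization, 0.18 with library weights and 0.02 with edgeR and with DESeq2, and -0.13 to 0.18 without single libraries. Without single libraries Adamtsl5 (-0.03) was -0.14 to 0.06, Mmp24 (-0.08) was -0.30 to 0.07 and Adam10 (-0.20) was -0.32 to 0.01. In TAZ-CAMTA1 against TAZ4A, Adam17 (-0.11) was 0.12 with library weights and -0.24 to 0.13 without single libraries, Adamts12 (0.09) was -0.45 to 1.11 without single libraries, and Adam10 (0.06) was -0.05 with TPM and -0.05 to 0.27 without single libraries. With library weights Adam11 (0.10) was -0.02, Mmp15 (0.14) was -0.02 and Adamts1 (-0.31) was 0.01, and without single libraries Adam11 was -0.01 to 0.19 and Adamts1 was -0.48 to 0.02. In TAZ4A against control, Timp2 (-0.09) was 0.02 with quantile normalization. TPM moved the median of all genes by -0.11 in TAZ-CAMTA1 against TAZ4A.

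Whether the replicate numbers pair the libraries was not settled, and the main fit did not pair them. Correlations of same-numbered deviations from the group means ran from -0.12 to 0.523 and were not all over 0.1. Libraries of different numbers were not compared in this way, so these correlations cannot decide it. With the replicate number as a block, 13 members were higher and 8 lower in TAZ4A against control, 12 and 7 in TAZ-CAMTA1 against control, and 9 and 9 in TAZ-CAMTA1 against TAZ4A. Depth limits the members below 0.5 CPM, which rest on few reads per library.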
